A study of Rattus norvegicus with 48 samples.

Results

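The cell cycle and DNA replication genes are a list of 35 symbols that carry a cell from the commitment to divide to the separation of its daughters. They were chosen by symbol from the deposited table of rat primary cortical cultures. Of the 35 listed genes 34 had a row, among 30211 genes in all, and all 34 passed the filter on low values that left 15890 genes tested. The gene Ccnb2 was not analysed here. The list held the replicative helicase (Mcm2, Mcm3, Mcm4, Mcm5, Mcm6 and Mcm7), replication and nucleotide supply (Pcna, Tyms and Rrm2), cyclins and their kinase (Ccne1, Ccne2, Ccna2, Ccnb1 and Cdk1), and mitotic kinases with their checkpoint partners (Bub1, Bub1b, Aurka, Aurkb, Plk1, Ttk and Birc5). It also held anaphase ubiquitination (Cdc20 and Ube2c), spindle and kinetochore genes (Kif11, Kif20a, Kif2c, Cenpe, Cenpf, Nusap1 and Tpx2), markers of dividing chromatin (Mki67 and Top2a), and the transcription factors Foxm1 and Mybl2.

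Poly(A) RNA was sequenced from 48 cultures in 16 groups of 3. The cultures came from cortex of rat fetuses of day 18, were grown without serum after the first day, and were used after 21 days in vitro. Control cultures received none of the agents (whether they held vehicle is not given), and the others received cocaine (25 µM for 24 h), the HIV-1 transactivator protein Tat (6 ng/mL for 48 h), or Tat and cocaine (Tat-Cocaine). Each of 4 compounds was added for 48 h to untreated, Tat and Tat-Cocaine cultures, which made the other 12 groups. The compounds were 4OI (4-octyl itaconate, a cell-permeable itaconate ester, 250 µM), Amlexanox (an inhibitor of the kinases TBK1 and IKK-epsilon, 25 µM), Tazemetostat (an inhibitor of the histone methyltransferase EZH2, 3 µM) and Senicapoc (a blocker of the potassium channel KCa3.1, 1 µM). Whether the 3 cultures of a group came from separate dissections is not given, so the p-values measure the spread between these libraries, which may be partly technical.

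A dividing cell first licenses its replication origins with the MCM helicase, then copies its DNA, and then condenses and separates its chromosomes. E2F factors switch on the replication genes, and the complex of MuvB with B-Myb (Mybl2) and Foxm1 switches on the mitotic genes later in the cycle. Mature neurons have left the cycle, so dividing cells of a cortical culture are sought among glia and their precursors, and microglia divide when growth factors or inflammatory signals reach them. Bulk RNA shows the sum over all cells of a culture, so more dividing cells and more cell cycle RNA per cell cannot be told apart.

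Promoter sequences are shown because the list holds both classes of target, and the letters of each class can be seen in them. RefSeq gave a window of 250 bases before the start for 26 of the 34 genes (27 windows, build GRCr8), and none for Mcm4, Rrm2, Ccne2, Ccna2, Aurkb, Ube2c, Tpx2 and Foxm1. Capitals mark the letters searched on both strands, namely TTTCCCGC, TTTGGCGC and TTTCGCGC for E2F, CCAAT for the CCAAT box, and TTTGAA for the cell cycle homology region. In Mcm5, Mcm6 and Mki67 neighbouring matches overlap, and the capitals run together there. The 5 windows shown lie, in this order, at chr19:13488563-13488812 (plus strand), chr13:42404353-42404602 (minus), chr20:19265043-19265292 (plus), chr10:84473094-84473343 (minus) and chr1:199952594-199952843 (minus), each written from 5′ to 3′ on the strand of its gene.
Mcm5: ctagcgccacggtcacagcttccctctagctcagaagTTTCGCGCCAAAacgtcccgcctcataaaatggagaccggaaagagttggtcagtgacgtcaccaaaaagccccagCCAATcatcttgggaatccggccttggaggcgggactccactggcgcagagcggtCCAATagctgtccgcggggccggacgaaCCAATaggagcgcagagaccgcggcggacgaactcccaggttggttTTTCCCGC
Mcm6: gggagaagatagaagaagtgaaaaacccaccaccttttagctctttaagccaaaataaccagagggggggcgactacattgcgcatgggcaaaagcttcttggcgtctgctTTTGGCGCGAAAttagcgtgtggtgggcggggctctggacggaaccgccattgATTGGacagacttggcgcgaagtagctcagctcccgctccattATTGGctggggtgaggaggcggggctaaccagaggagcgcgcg
Cdk1: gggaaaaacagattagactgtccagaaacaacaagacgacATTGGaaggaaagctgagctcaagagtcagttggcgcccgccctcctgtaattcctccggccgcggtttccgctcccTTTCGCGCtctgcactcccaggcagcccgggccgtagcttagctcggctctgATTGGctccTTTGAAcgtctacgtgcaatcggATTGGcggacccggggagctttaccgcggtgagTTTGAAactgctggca
Top2a: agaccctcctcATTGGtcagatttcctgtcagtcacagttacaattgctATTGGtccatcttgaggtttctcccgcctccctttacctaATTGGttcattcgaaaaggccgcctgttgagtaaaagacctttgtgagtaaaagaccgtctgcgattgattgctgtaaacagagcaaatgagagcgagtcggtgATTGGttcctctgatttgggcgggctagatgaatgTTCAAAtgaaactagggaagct
Mki67: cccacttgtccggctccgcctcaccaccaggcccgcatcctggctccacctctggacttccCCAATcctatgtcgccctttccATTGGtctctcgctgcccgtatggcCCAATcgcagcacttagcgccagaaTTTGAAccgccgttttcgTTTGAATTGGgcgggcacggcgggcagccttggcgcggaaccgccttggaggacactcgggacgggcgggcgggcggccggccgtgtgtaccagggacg

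The E2F letters stood in 5 of the 7 windows of replication genes (Mcm2, Mcm5, Mcm6, Mcm7 and Tyms) and in 1 of the 20 windows of cyclin and mitosis genes (Cdk1), against 1.41% of all 33469 windows. The CCAAT letters were in 5 of the 7 and in 13 of the 20 windows, against 34% of all. The TTTGAA letters were in 5 of the 20 cyclin and mitosis windows (Cdk1, Birc5, Cdc20, Mki67 and Top2a) and in 1 of the 7 replication windows (Mcm2), against 16.2% of all. The same 5 cyclin and mitosis windows also held CCAAT, a pairing seen in 5.87% of all windows. These matches are descriptions of letters in a window and say nothing of binding in these cultures.

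The deposited value of a gene is its uniquely mapped reads relative to the reads of its library (CPM), scaled by the authors to the effective library size. The depth read off from the value of 1 read was 17.5 M to 29.1 M reads on genes per library (median 22.4 M), so that the filter of 0.5 CPM stood for 8.58 to 15 reads. CPM is not divided by gene length, so levels were compared between libraries and not between genes. In RefSeq's annotation 8 of the 34 genes overlap a protein-coding neighbour (Rrm2, Ccne2, Aurka, Plk1, Kif11, Kif20a, Nusap1 and Foxm1), and how shared reads were assigned is not given. The labels call the cells neurons, and all 10 neuronal markers were detected in the Control cultures (summed level 2822 to 4442 CPM), Map2 and Rbfox3 among them. All 8 astrocyte markers (9491 to 11686 CPM), all 12 microglial and myeloid markers (1596 to 2849 CPM) and all 6 markers of oligodendrocyte precursors (619 to 781 CPM) were detected there too, so the cultures were mixed. In Control replicates 1, 2 and 3 the astrocyte marker Gfap was at 4447, 4044 and 4756 CPM, the microglial marker Aif1 at 42.1, 122 and 68.4 CPM and the oligodendrocyte lineage marker Olig2 at 95.2, 88.2 and 73.5 CPM.

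The 34 genes covered a wide range over the 16 groups. The ratio of the highest to the lowest group mean ran from 1.39 for Pcna, the sliding clamp of the DNA polymerases, to 15.1 for Ube2c, the ubiquitin-conjugating enzyme of the anaphase-promoting complex. Rrm2, the regulated subunit of ribonucleotide reductase, spanned 13.1-fold, Ccna2 (cyclin A2) 12.6-fold, Kif2c (a microtubule depolymerase of the kinetochore) 11.5-fold and Mki67, the proliferation antigen, 11.3-fold. At the other end Ccne2 (cyclin E2) spanned 1.59-fold, Tyms (thymidylate synthase) 1.69-fold, Mcm7 1.99-fold and Ccne1 (cyclin E1) 2.06-fold. The lowest group mean was that of 4OI for 18 genes and that of Amlexanox for 12. The highest was that of Tat-Cocaine-Senicapoc for 17 and that of Tat-Cocaine-Tazemetostat for 16. Ccne1 was highest in Tat-Senicapoc and lowest in Cocaine. These orders are descriptions, and neighbours in them often lay within each other's spread.

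**Figure D1:**
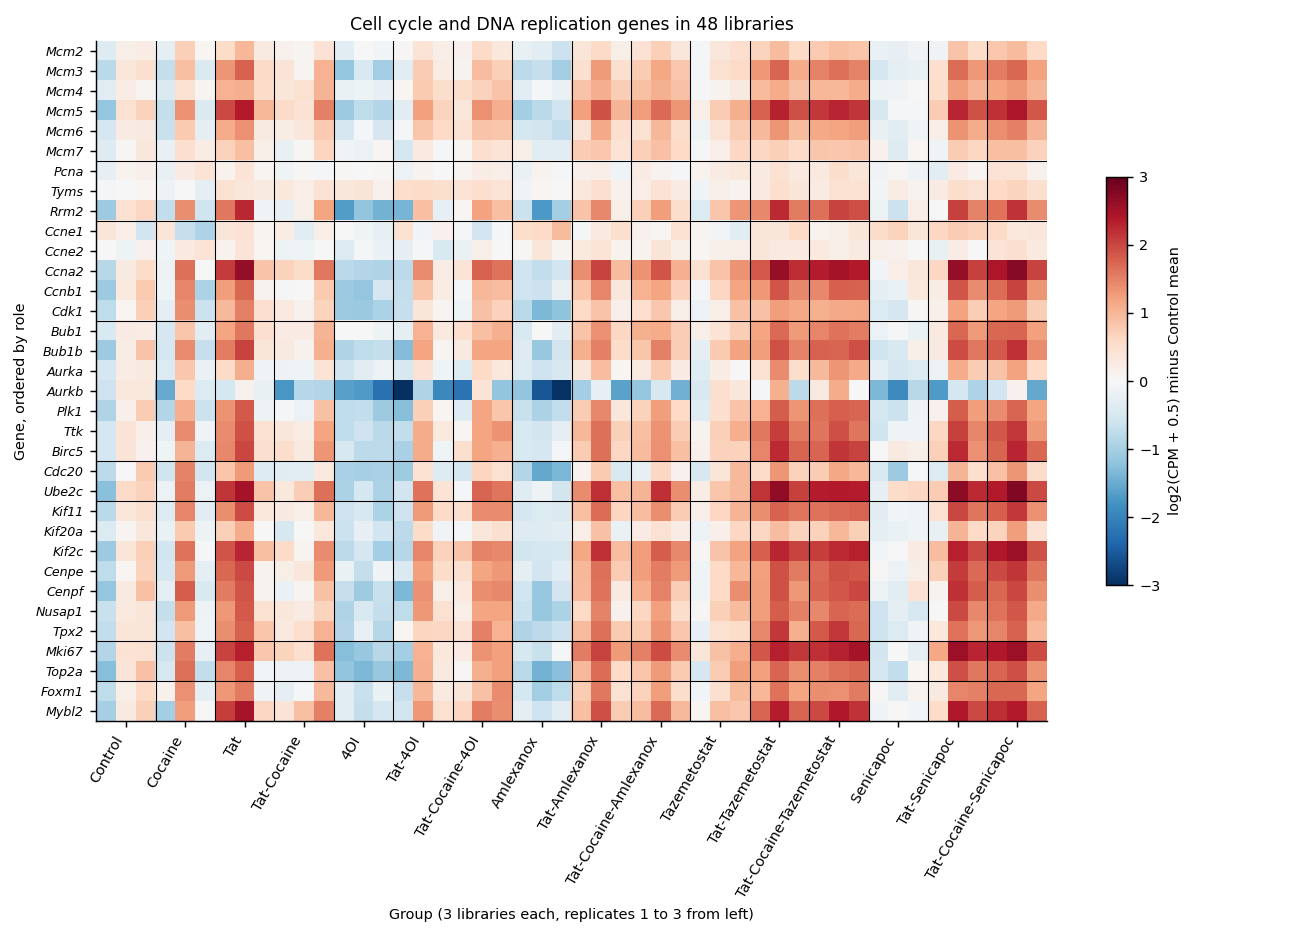
Level of the 34 genes (rows, ordered by role) in the 48 libraries (columns, 3 per group), as log2(CPM + 0.5) minus the gene's mean in Control. Red is above and blue below that mean, and most rows change colour together within a library, as in Tat replicate 2 (red) and in the 4OI libraries (blue), while Aurkb, Pcna, Tyms, Ccne1 and Ccne2 follow less.

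In many groups the genes moved in step from culture to culture. In Tat cultures replicate 2 held the highest value of 33 of the 34 genes and replicate 3 the lowest of 33. The median over the 34 genes of log2(CPM + 0.5) relative to the Control mean was 1.32, 1.77 and 0.27 in Tat replicates 1, 2 and 3. In Control, replicate 1 was lowest in 32 genes, and these medians were -0.76, 0.26 and 0.46. In Cocaine, replicate 2 was highest in 31 genes, with medians of -0.42, 1.27 and -0.28. In Tat-Cocaine, replicate 3 was highest in 31 genes, with medians of 0.24, 0.14 and 0.92. Tat-Senicapoc replicate 1 was lowest in all 34 genes, with medians of 0.26, 1.76 and 1.34 over replicates 1, 2 and 3. The spread was narrow in 4OI (-0.73 to -0.58), Amlexanox (-0.62 to -0.49) and Senicapoc (-0.24 to -0.02) given alone and in Tat-Cocaine-Tazemetostat (1.47 to 1.68). In 4OI and Amlexanox the genes did not move in step. Replicates 1, 2 and 3 were highest in 7, 16 and 11 genes in 4OI and in 15, 8 and 11 in Amlexanox. Since the genes share the culture they are measured in, their agreement in direction is not independent evidence, and single libraries moved the counts of called genes.

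Tat raised 17 of these genes. Relative to Control, 17 of the 34 genes were higher in Tat cultures and 0 lower in limma at an adjusted p under 0.05, against 14.6% of all 15890 genes called higher and 6.70% called lower. The median log2 fold change on the log2(CPM + 0.5) scale was 1.07 over the 34 genes and 0.01 over all genes. By role, 5 of 6 helicase genes, 1 of 3 supply genes, 1 of 5 cyclin and kinase genes, 3 of 7 mitotic kinase and checkpoint genes, 1 of 2 anaphase genes, 4 of 7 spindle genes, 1 of 2 chromatin markers and 1 of 2 transcription factors rose. At an unadjusted p under 0.05 there were 24 of the 34 genes, against 35.2% of all. The difference was positive for 33 genes, the exception being Aurkb (the kinase of the chromosomal passenger complex), at -0.21 ± 0.60 (SE).

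Mki67 was at 8.28, 21.5 and 21.7 CPM in the 3 Control cultures and at 65.8, 81.7 and 28.1 CPM in the 3 Tat cultures. The Tat libraries all lay above the Control libraries, and Tat replicate 3 was the nearest to them. The log2 fold change was 1.73 ± 0.47 (SE, n = 3 per group, limma, adjusted p = 0.00718). Top2a, the topoisomerase that untangles replicated chromosomes, was at 8.47, 27.6 and 39.4 CPM in Control and at 58.9, 74.7 and 19.8 CPM in Tat. Its groups overlapped, since Tat replicate 3 fell below Control replicates 2 and 3, and its difference of 1.06 ± 0.58 did not pass the test (limma, adjusted p = 0.185).

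Among the helicase genes, Mcm2 was at 25.6, 38.3 and 39.5 CPM in Control and at 50.2, 68 and 40.6 CPM in Tat. Every Tat value lay above every Control value, Tat replicate 3 by little, and the log2 fold change was 0.61 ± 0.21 (limma, adjusted p = 0.0404). Mcm5 was at 3.8, 12.6 and 14.9 CPM in Control and at 37.3, 49.4 and 18.4 CPM in Tat. It rose by 1.79 ± 0.46 on the log2 scale without overlap, and Mcm4 had the lowest adjusted p of the 34 genes with 0.89 ± 0.19 (limma, adjusted p = 0.000745). Pcna was at 73.6, 93.8 and 97.7 CPM in Control and at 93.7, 116 and 92.7 CPM in Tat, which overlapped and did not pass the test (0.19 ± 0.14 on the log2 scale). Tyms did pass with a small difference of 0.35 ± 0.10 and a narrow spread between its libraries.

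Ccna2, which drives S phase and entry into mitosis, had the largest rise, from 1.61, 4.04 and 4.99 CPM in Control to 15.5, 22.9 and 6.24 CPM in Tat (1.86 ± 0.50 on the log2 scale, limma, adjusted p = 0.00706). Ube2c went from 0.383, 2.6 and 2.86 CPM to 8.72, 11.3 and 3.26 CPM (1.82 ± 0.56). Both genes separated the groups without overlap, and in both Tat replicate 3 was the lowest Tat library. Mybl2 rose by 1.72 ± 0.50 although Tat replicate 3 (3.12 CPM) lay below Control replicate 3 (3.40 CPM). Birc5 (survivin, the passenger complex partner of Aurkb) was at 1.34, 2.94 and 2.41 CPM in Control and at 6.69, 10.1 and 3.17 CPM in Tat (1.31 ± 0.41).

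Of the spindle genes, Kif2c was at 0.844, 3.19 and 4.18 CPM in Control and at 9.99, 13.3 and 4.87 CPM in Tat (1.69 ± 0.50). Tpx2, which activates Aurka on the spindle, was at 7.75, 17.5 and 17.4 CPM and at 36.1, 46.9 and 24 CPM (1.33 ± 0.36). Both rose without overlap between the groups. Cenpe, a kinetochore motor, was at 2.84, 5.39 and 8.67 CPM and at 18.1, 21.7 and 5.58 CPM, and it passed the test (1.27 ± 0.45, limma, adjusted p = 0.0394) with overlapping groups. Aurkb was at 47.2, 92.2 and 91 CPM in Control and at 50.9, 80.5 and 62.5 CPM in Tat, so that its Tat libraries fell inside the Control range. The groups did not overlap for 15 of the 34 genes, against 19.4% of all genes that were higher without overlap.

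Some markers of cell types also changed with Tat. In Tat against Control 3 of 12 microglial markers rose (Aif1, Itgam and Ptprc) and 1 fell, against 14.6% of all genes higher and 6.70% lower. The other microglial markers did not pass. The summed level of the 12 was 1995 to 3584 CPM in Tat against 1596 to 2849 CPM in Control. Aif1 was at 217, 366 and 139 CPM in Tat (1.65) and Cx3cr1, which did not pass, at 21.6, 54.3 and 37.2 CPM in Control and 50.2, 88.5 and 38.2 CPM in Tat. Of 8 astrocyte markers 3 fell with Tat, against 6.70% of all genes lower, Gfap among them (3680.3, 2429.9 and 2231 CPM). The part of these cells in the rise of the 17 genes was not tested.

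The count rested on single libraries. Leaving out Control replicate 1 gave 1, Tat replicate 2 gave 2, Tat replicate 1 gave 8 and Tat replicate 3 gave 27. The count was 5 in a fit to the 21 libraries of the groups without Amlexanox, Tazemetostat or Senicapoc and 1 when the Tat and Control libraries were fitted by themselves.

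**Figure D2:**
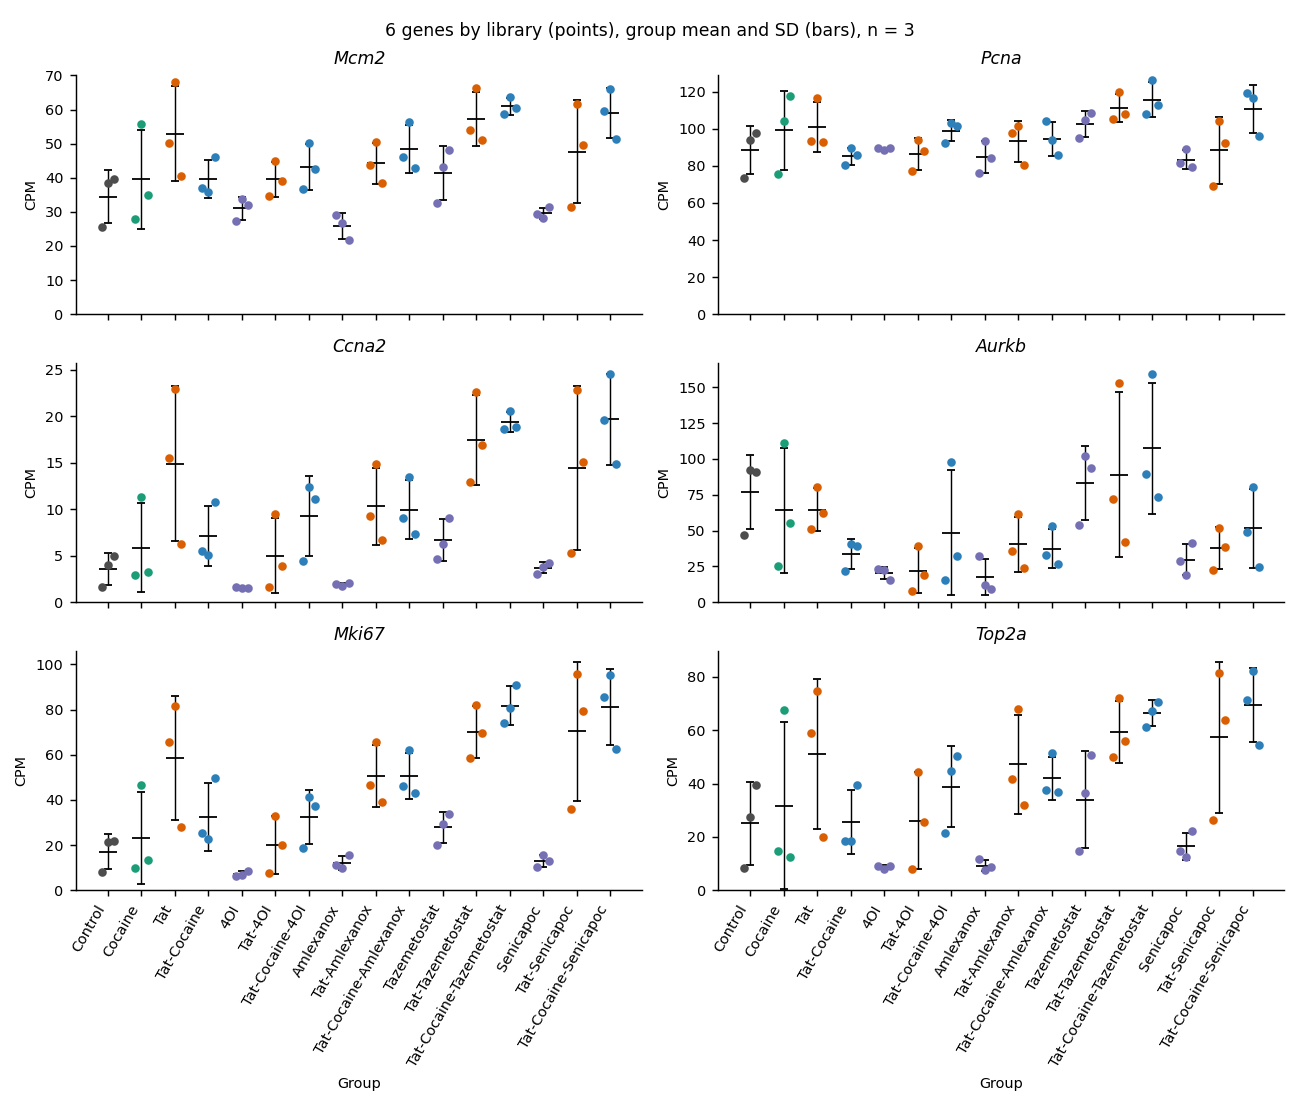
CPM of Mcm2, Pcna, Ccna2, Aurkb, Mki67 and Top2a in the 48 libraries (points), with the mean and SD of each group of 3 (bars), on linear axes from 0. Mki67 and Ccna2 are higher in each Tat library than in any Control library, and in Ccna2, Mki67 and Top2a the points of 4OI, Amlexanox and Senicapoc alone lie low and close together.

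Cocaine alone changed 0 of the 34 genes in limma, against 0.201% of all genes. At an unadjusted p under 0.05 there were 0, against 12.6% of all. Its median log2 fold change was 0.14, and Cocaine replicate 2 stood above the others. Mki67 was at 9.91, 46.7 and 13.2 CPM, Top2a at 14.9, 67.7 and 12.4 CPM, Pcna at 75.6, 104 and 118 CPM and Mcm2 at 27.8, 55.8 and 35 CPM in the Cocaine cultures. Replicate 2 was the highest for 3 of these 4 genes and replicate 3 for Pcna. Mcm5 was at 5.28, 23.9 and 6.52 CPM, Ccna2 at 2.88, 11.4 and 3.3 CPM, Birc5 at 1.93, 4.85 and 1.49 CPM and Aurkb at 25.5, 111 and 55.6 CPM. Ube2c was at 1.37, 5.61 and 1.37 CPM, Kif2c at 1.42, 8.25 and 2.27 CPM, Tpx2 at 8.87, 25.3 and 12.5 CPM and Cenpe at 3.49, 13.2 and 4.22 CPM. In each of these 8 genes replicate 2 was above the highest Control value. Without Cocaine replicate 1 the count was 1 (lower), and without Cocaine replicate 2 the median turned to -0.37.

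In Tat-Cocaine cultures 2 of the 34 genes were higher than in Control, against 8.63% of all genes called higher, and 0 were lower, against 6.30%. The 2 genes are 5.88% of the list, a share below that of all genes. They were Mcm4 (0.61 ± 0.19, limma, adjusted p = 0.0273) and Tyms (0.31 ± 0.10, adjusted p = 0.0350). Mcm4 was at 18.6, 27.3 and 24.5 CPM in Control and at 29.8, 31.8 and 47.5 CPM in Tat-Cocaine, and Tyms at 11, 11.4 and 11.8 CPM and at 14.2, 13.3 and 15.5 CPM. Neither gene overlapped between the groups. Both calls were lost in the fits to 21 libraries and to the libraries of both groups by themselves, and the count was 0 without Control replicate 1 or Tat-Cocaine replicate 3, and 1 without Control replicate 2 or 3 or Tat-Cocaine replicate 1. Mki67 was at 25.2, 22.6 and 49.7 CPM, Top2a at 18.6, 18.5 and 39.3 CPM, Pcna at 80.4, 89.6 and 86 CPM and Mcm2 at 37.1, 35.8 and 46.1 CPM in the Tat-Cocaine cultures. Mki67 lay above all Control values there, but its difference of 0.93 ± 0.47 did not pass the test (limma, adjusted p = 0.187). Aurkb lay below all Control values and did not pass either (-1.16 ± 0.60).

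Set against Tat alone, Tat-Cocaine gave values below Tat for all 34 genes (median log2 fold change -0.72, all genes -0.03), and 0 passed the test, against 0.0189% of all genes. At an unadjusted p under 0.05 there were 2 genes, against 8.16% of all, and the lowest adjusted p was 0.609. Mcm5 was at 13.8, 12.4 and 26.8 CPM in Tat-Cocaine, Ccna2 at 5.53, 5.03 and 10.8 CPM, Birc5 at 3.32, 2.7 and 6.12 CPM and Ube2c at 2.13, 2.99 and 6.08 CPM. Kif2c was at 3.75, 2.54 and 7.13 CPM, Tpx2 at 16.5, 19.2 and 27.9 CPM, Cenpe at 5.83, 6.69 and 13.1 CPM and Aurkb at 21.7, 40.4 and 39.5 CPM. In each of these 8 genes but Aurkb the highest Tat-Cocaine library was above the lowest Tat library. The comparisons with Control and with Tat share the Tat-Cocaine libraries. If the Tat and Tat-Cocaine cultures were harvested at different times, cocaine and time cannot be told apart.

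**Figure D3:**
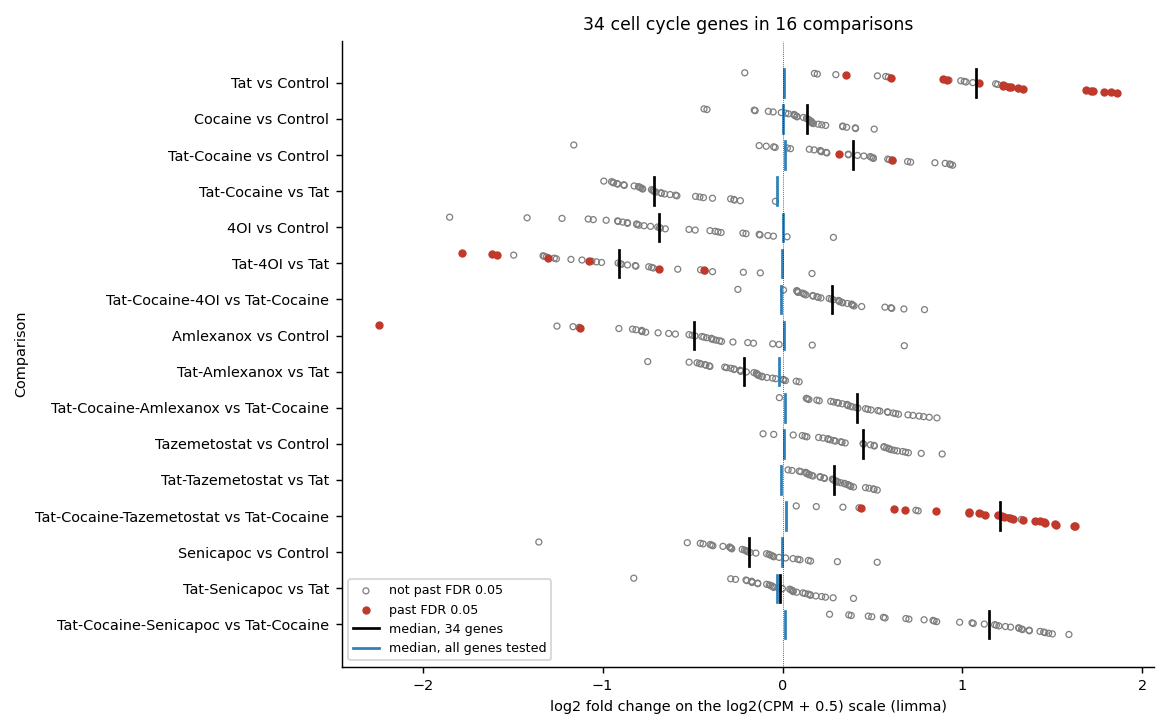
Log2 fold change (limma, log2(CPM + 0.5) scale, x axis) of each of the 34 genes (points) in the 16 comparisons (y axis). Red filled points passed an adjusted p of 0.05, black bars mark the median of the 34 genes and blue bars that of all genes tested. The median of the 34 genes is 1.07 in Tat against Control, 1.21 in Tat-Cocaine-Tazemetostat and 1.15 in Tat-Cocaine-Senicapoc against Tat-Cocaine, and -0.91 in Tat-4OI against Tat.

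In Tat cultures 4OI lowered 7 of these genes. Relative to Tat, 7 of the 34 genes fell in Tat-4OI and 0 rose, against 9.48% of all genes called lower and 6.10% higher, and the median log2 fold change was -0.91 over the 34 genes and 0.00 over all. The 7 were Aurkb, Mki67, Ccna2, Birc5, Cdk1 (the mitotic kinase), Mcm7 and Ccne2. The difference was negative for 33 genes, the exception being Tyms, and 20 genes had an unadjusted p under 0.05, against 31.5% of all genes.

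Aurkb was at 7.92, 38.9 and 18.9 CPM in Tat-4OI, against 50.9, 80.5 and 62.5 CPM in Tat, and its fall of -1.78 ± 0.60 on the log2 scale was the largest (limma, adjusted p = 0.0374). Mki67 was at 7.49, 32.9 and 19.9 CPM, a log2 fold change of -1.61 ± 0.47 (limma, adjusted p = 0.0172). Aurkb separated the groups, while for Mki67 the Tat-4OI replicate 2 lay above Tat replicate 3. Ccna2 was at 1.66, 9.46 and 3.84 CPM (-1.59 ± 0.50) and Birc5 at 0.856, 5.22 and 1.9 CPM (-1.30 ± 0.41). Cdk1 was at 28.1, 40.6 and 19.9 CPM in Tat and at 8.45, 18.2 and 14.8 CPM in Tat-4OI (-1.08 ± 0.38, limma, adjusted p = 0.0498). Cdk1 did not overlap, while Ccna2 and Birc5 did through Tat-4OI replicate 2. Mcm7 fell by 0.69 ± 0.23 and Ccne2 by 0.44 ± 0.13 on the log2 scale. In all, 4 of the 34 genes were lower without overlap, against 17.2% of all genes.

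Other named genes did not pass in this comparison. Top2a was at 8.03, 44.5 and 25.6 CPM in Tat-4OI, Pcna at 77.4, 94 and 88.2 CPM, Mcm2 at 34.8, 45 and 39.1 CPM and Mcm5 at 7.01, 21.9 and 14.7 CPM. Ube2c was at 0.91, 6.02 and 2.29 CPM, Kif2c at 1.07, 7.31 and 4.14 CPM, Tpx2 at 13.8, 21.2 and 20.8 CPM and Cenpe at 3.69, 12.8 and 7.74 CPM. In each of these 8 genes replicate 1 was the lowest and replicate 2 the highest, and Tpx2 was lower than in Tat without overlap. The count of 7 became 0 when Tat replicate 2 or Tat-4OI replicate 1 was left out, 1 when Tat replicate 1 or Tat-4OI replicate 3 was, and 20 when Tat replicate 3 or Tat-4OI replicate 2 was. It was 0 in the fits to 21 libraries and to the libraries of these groups by themselves, so the calls depend on the spread shared over all 48 libraries. In Tat-4OI the microglial sum was 883 to 1946 CPM, and Aif1 was at 53.7, 147 and 46.8 CPM. Of 12 microglial markers 3 were lower than in Tat (C1qb, Itgam and Csf1r), against 9.48% of all genes lower. The part of microglia in the fall of the 7 genes was not tested.

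Given alone, 4OI changed 0 of the 34 genes relative to Control, against 3.15% of all genes, with 7 at an unadjusted p under 0.05, against 13.1% of all. The median log2 fold change was -0.69 and the difference was negative for 32 genes. Mki67 was at 6.2, 6.94 and 8.59 CPM, Top2a at 8.95, 8.02 and 9.26 CPM, Pcna at 89.5, 88.8 and 89.5 CPM and Mcm2 at 27.3, 33.6 and 32.1 CPM in the 4OI cultures. The 3 libraries lay close together, and for Mki67 and Top2a Control replicate 1 was within their range. Aurkb, at 23.4, 22.5 and 15.2 CPM, had the lowest adjusted p (-1.85 ± 0.60, limma, adjusted p = 0.0904). Mcm5 was at 3.98, 5.09 and 4.67 CPM, Ccna2 at 1.64, 1.55 and 1.5 CPM, Birc5 at 1.4, 1.03 and 1.04 CPM and Ube2c at 0.589, 0.949 and 0.584 CPM. Kif2c was at 1.14, 1.51 and 0.917 CPM, Tpx2 at 7, 11.3 and 7.21 CPM and Cenpe at 4.46, 2.93 and 4.71 CPM. The pairing of same-numbered libraries held for this comparison, and with the replicate number as a block over all libraries the count was 1, while in both groups by themselves it was 0 with the block and 1 without it. It was 1 without Control replicate 1 and 0 without each of the other 5 libraries in turn.

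In Tat-Cocaine-4OI cultures 0 of the 34 genes differed from Tat-Cocaine, against 7.36% of all genes, with 0 at an unadjusted p under 0.05, against 21.2% of all. The median log2 fold change was 0.28, positive for 33 genes, which is the other direction than in Tat cultures, though the change of direction was not tested. Mki67 was at 18.7, 41.1 and 37.4 CPM, Top2a at 21.6, 44.7 and 50.2 CPM, Pcna at 92.6, 103 and 101 CPM and Mcm2 at 36.8, 50.3 and 42.5 CPM. Replicate 1 was the lowest library in 33 of the 34 genes there. Mcm5 was at 11.6, 24.2 and 19.6 CPM, Ccna2 at 4.38, 12.4 and 11.1 CPM, Birc5 at 3.18, 5.48 and 5.06 CPM and Aurkb at 15.5, 97.7 and 32.3 CPM. Ube2c was at 1.5, 6.53 and 5.9 CPM, Kif2c at 4.68, 7.52 and 7.24 CPM, Tpx2 at 18.3, 39 and 27.9 CPM and Cenpe at 7.44, 12.4 and 13.3 CPM. Aurkb replicate 2 stood far above the other 2 libraries. Of 12 microglial markers 4 fell in this comparison and 0 rose, while 3 of 8 astrocyte markers rose. Of all genes 7.36% were called in either direction. The microglial sum was 605 to 1847 CPM against 1519 to 2525 CPM in Tat-Cocaine.

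Amlexanox alone lowered 2 of the 34 genes relative to Control, against 7.60% of all genes called lower, and raised 0, against 3.75%. The 2 genes are 5.88% of the list, so its genes were not called lower more often than other genes. Aurkb was at 32.2, 11.9 and 8.9 CPM in Amlexanox (-2.24 ± 0.60, limma, adjusted p = 0.0127), and Cdk1 went from 8.01, 14.7 and 23.2 CPM in Control to 7.73, 5.2 and 5.81 CPM (-1.12 ± 0.38, adjusted p = 0.0493). Neither gene overlapped between the groups. Over the 34 genes the median was -0.49, negative for 32. Mki67 was at 11.1, 9.7 and 15.4 CPM, Top2a at 11.8, 7.53 and 8.56 CPM, Pcna at 76.4, 93.7 and 84.1 CPM and Mcm2 at 28.9, 26.8 and 21.6 CPM. Mcm5 was at 4.18, 4.93 and 5.77 CPM, Ccna2 at 1.98, 1.75 and 2.03 CPM, Birc5 at 1.42, 1.36 and 2.05 CPM and Ube2c at 1.13, 1.4 and 0.939 CPM. All 8 overlapped the Control libraries. Kif2c was at 1.46, 1.47 and 1.53 CPM, Tpx2 at 6.85, 7.49 and 8.38 CPM and Cenpe at 4.18, 3.3 and 4.07 CPM. In Amlexanox against Control 4 of 8 astrocyte markers fell (Aqp4, Aldh1l1, S100b and Gja1) and 2 of 8 markers of neural progenitors (Sox2 and Pax6), with 0 of 12 microglial and 0 of 10 neuronal markers past the threshold. Of all genes 7.60% were called lower there. The astrocyte sum was 5451 to 12985 CPM against 9491 to 11686 CPM in Control, and the part of these cells in the fall of the 2 genes was not tested. The count was 8 without Control replicate 1 (7 lower, 1 higher), 3 without Amlexanox replicate 1 (2 lower, 1 higher), 0 without each of the other 4 libraries in turn and 0 with both groups fitted by themselves.

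With Tat, Amlexanox changed 0 of the 34 genes relative to Tat, against 0.837% of all, with 0 at an unadjusted p under 0.05 (12.5% of all) and a median of -0.22. Mki67 was at 46.4, 65.7 and 39.2 CPM, Top2a at 41.6, 68 and 32.1 CPM, Pcna at 97.9, 101 and 80.4 CPM and Mcm2 at 43.6, 50.6 and 38.4 CPM. These ranges overlapped those of Tat. Mcm5 was at 21.8, 35.5 and 18.8 CPM, Ccna2 at 9.29, 14.9 and 6.72 CPM, Birc5 at 4.01, 7.86 and 3.58 CPM and Aurkb at 35.8, 61.6 and 23.9 CPM. Ube2c was at 5.06, 9.14 and 3.4 CPM, Kif2c at 5.84, 12.5 and 4.88 CPM, Tpx2 at 26.4, 42.8 and 23.5 CPM and Cenpe at 10.8, 17.2 and 9.11 CPM. Replicate 2 was the highest library in 33 of the 34 genes, as in Tat.

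With Tat and cocaine, Amlexanox changed 0 of the 34 genes relative to Tat-Cocaine, against 0.925% of all, with 2 at an unadjusted p under 0.05 (17.8% of all) and a median of 0.41. Mki67 was at 46.2, 62.1 and 43.1 CPM, Top2a at 37.6, 51.4 and 36.8 CPM, Pcna at 104, 94.2 and 85.8 CPM and Mcm2 at 46.2, 56.2 and 42.8 CPM. Mcm5 was at 22.4, 30.7 and 23.3 CPM, Ccna2 at 9.04, 13.4 and 7.38 CPM, Birc5 at 4.62, 6.29 and 4.41 CPM and Aurkb at 32.7, 52.9 and 26.8 CPM. The difference was positive for 33 genes. Ube2c was at 3.75, 9.02 and 5.02 CPM, Kif2c at 6.31, 9.59 and 7.3 CPM, Tpx2 at 23.2, 34.9 and 23.6 CPM and Cenpe at 12.9, 15.9 and 13.2 CPM.

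In cultures given Tat and cocaine, 22 of these genes were higher with Tazemetostat than without it. Relative to Tat-Cocaine, 22 of the 34 genes were higher in Tat-Cocaine-Tazemetostat and 0 lower, against 15.2% of all genes called higher and 13.4% called lower. The median log2 fold change was 1.21 over the 34 genes and 0.02 over all genes, positive for all 34, and 31 of the 34 genes had an unadjusted p under 0.05, against 42.9% of all. By role, 4 of 6 helicase genes, 1 of 3 supply genes, 2 of 5 cyclin and kinase genes, 6 of 7 mitotic kinase and checkpoint genes, 1 of 2 anaphase genes, 6 of 7 spindle genes, 1 of 2 chromatin markers and 1 of 2 transcription factors rose. The libraries of the 2 groups did not overlap for 31 genes, against 24.8% of all genes higher without overlap. The comparisons of all 4 compounds with Tat-Cocaine share its 3 libraries. Their differences were positive for 33 (4OI), 33 (Amlexanox), 34 (Tazemetostat) and 34 (Senicapoc) of the 34 genes. Relative to the Control mean, the median log2 level of the 34 genes was 1.47 to 1.68 in Tat-Cocaine-Tazemetostat libraries. It was 0.14 to 0.92 in Tat-Cocaine, 0.27 to 1.77 in Tat and 1.23 to 1.76 in Tat-Tazemetostat. The part of these shared libraries in the rise was not tested.

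The largest rise was that of Cenpf, a kinetochore protein of G2 and mitosis, from 6.22, 7.7 and 13.7 CPM to 25.7, 27.7 and 30.7 CPM (1.63 ± 0.59, limma, adjusted p = 0.0385). Aurkb was at 89.2, 159 and 73.3 CPM against 21.7, 40.4 and 39.5 CPM (1.62 ± 0.60). Plk1, a kinase of mitotic entry, rose by 1.52 ± 0.52 on the log2 scale from 4.6, 4.22 and 9.3 CPM to 16.2, 18 and 17.4 CPM. None of these 3 genes overlapped. Kif2c was at 11.5, 12.9 and 13.8 CPM (1.51 ± 0.50) and Ccna2 at 18.7, 20.6 and 18.9 CPM (1.46 ± 0.50). Tpx2, at 49, 59.5 and 45.4 CPM, had the lowest adjusted p (1.28 ± 0.36, limma, adjusted p = 0.0134). These genes also stood clear of the Tat-Cocaine libraries, of which replicate 3 was the nearest.

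Mki67 was at 73.9, 80.6 and 90.7 CPM (1.40 ± 0.47) and Mcm2 at 58.8, 63.7 and 60.3 CPM (0.62 ± 0.21). Pcna, whose group means spanned the narrowest range of the 34 genes, was at 108, 126 and 113 CPM and rose by 0.44 ± 0.14 (limma, adjusted p = 0.0196). Mcm5 was at 40.9, 45.9 and 41.7 CPM, Birc5 at 8.36, 11.3 and 10.2 CPM, Ube2c at 10.2, 10.4 and 10.2 CPM and Cenpe at 17.8, 20.7 and 20.2 CPM. All of these passed the test without overlap. Top2a was at 61.3, 67.4 and 70.8 CPM, again without overlap, and its 1.46 ± 0.58 stood just outside the threshold (limma, adjusted p = 0.0538). Of the 17 genes called in Tat against Control, 13 were among these 22, which is 76.5% of the first and 59.1% of the second. Over all 34 genes 64.7% were called here and 50% in Tat against Control, so the overlap was little above these shares. The 2 comparisons share no library. The count became 0 when Tat-Cocaine replicate 1 or 2 or Tat-Cocaine-Tazemetostat replicate 2 was left out, 6 when Tat-Cocaine-Tazemetostat replicate 1 or 3 was, and 30 when Tat-Cocaine replicate 3 was. It was 30 with both groups fitted by themselves and 13 without the filter on low values.

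The summed level of the 12 microglial markers was 3541 to 5497 CPM in Tat-Cocaine-Tazemetostat against 1519 to 2525 CPM in Tat-Cocaine. Of the 12, 7 rose, against 15.2% of all genes higher, and 8 of 10 neuronal markers fell, against 13.4% lower. The neuronal sum was 1015 to 1555 CPM against 2260 to 3017 CPM, and Map2 was at 264, 215 and 316 CPM against 449, 478 and 422 CPM. The part of cell composition in the rise of the 22 genes was not tested.

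Tazemetostat alone and with Tat gave 0 calls among the 34 genes and 0% of all genes, with 0 of the 34 at an unadjusted p under 0.05 in either comparison, against 3.62% and 5.36% of all genes. The medians were 0.45 against Control and 0.28 against Tat, and the difference was positive for 32 and 34 genes. In Tazemetostat cultures Mki67 was at 20.3, 29.4 and 33.8 CPM, Top2a at 14.8, 36.4 and 50.9 CPM, Pcna at 94.9, 105 and 109 CPM and Mcm2 at 32.7, 43.2 and 48.1 CPM. Mcm5 was at 10.4, 15.7 and 19.7 CPM, Ccna2 at 4.62, 6.3 and 9.09 CPM, Birc5 at 2.42, 3.78 and 3.74 CPM and Aurkb at 53.7, 102 and 93.7 CPM. Replicate 1 was the lowest library in 33 of the 34 genes, as replicate 1 was in Control. Ube2c was at 1.93, 3.22 and 3.59 CPM, Kif2c at 2.42, 4.69 and 6.04 CPM, Tpx2 at 11.1, 18.5 and 19.9 CPM and Cenpe at 4.71, 8.02 and 10.7 CPM.

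In Tat-Tazemetostat cultures Mki67 was at 58.7, 81.8 and 69.6 CPM, Top2a at 49.8, 72.2 and 55.8 CPM, Pcna at 106, 119.8 and 108 CPM and Mcm2 at 54.1, 66.3 and 51.2 CPM. Mcm5 was at 31.8, 46.4 and 36 CPM, Ccna2 at 12.9, 22.6 and 16.9 CPM, Birc5 at 6.76, 11.9 and 8.37 CPM and Aurkb at 71.8, 153 and 42.1 CPM. Replicate 2 was the highest library in 32 of the 34 genes, and its Aurkb value was the second highest of all 48 libraries. Ube2c was at 8.73, 12.7 and 8.22 CPM, Kif2c at 9.44, 13.4 and 11.1 CPM, Tpx2 at 37.1, 59.5 and 28.7 CPM and Cenpe at 12.8, 20.9 and 16.1 CPM.

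With Senicapoc added to Tat and cocaine the difference from Tat-Cocaine was positive for all 34 genes, but none passed the adjusted threshold. The median log2 fold change was 1.15, and the libraries did not overlap for 32 genes, against 11.2% of all genes higher without overlap. At an unadjusted p under 0.05 there were 31 of the 34 genes, against 15.5% of all, while 0 of the 34 and 0.0441% of all genes passed the adjusted threshold in limma, and the lowest adjusted p among the 34 was 0.153 (Ccne2, 0.48 ± 0.13). The adjustment depends on how many genes differ over the whole table, and 7 of all 15890 genes passed in this comparison. The difference between Tazemetostat and Senicapoc in cultures given Tat and cocaine was not tested. Both were compared with the same 3 Tat-Cocaine libraries. Relative to the Control mean, the median log2 level of the 34 genes was 1.20 to 1.75 in Tat-Cocaine-Senicapoc libraries. It was 0.26 to 1.76 in Tat-Senicapoc, whose median log2 fold change against Tat was -0.01. The part of the shared Tat-Cocaine libraries in these differences was not tested.

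In Tat-Cocaine-Senicapoc cultures Mki67 was at 85.5, 95.1 and 62.5 CPM, Top2a at 71.4, 82.1 and 54.6 CPM, Pcna at 119, 117 and 96.1 CPM and Mcm2 at 59.7, 66.1 and 51.4 CPM. Mcm5 was at 43.3, 50.3 and 34.4 CPM, Ccna2 at 19.6, 24.6 and 14.8 CPM, Birc5 at 8.39, 12.3 and 8.19 CPM and Aurkb at 49.1, 80.4 and 24.9 CPM. Of these 8 genes 7 lay above Tat-Cocaine in every library, and Aurkb overlapped. Ube2c was at 10.4, 13.9 and 7.83 CPM, Kif2c at 14.5, 16.3 and 10.2 CPM, Tpx2 at 37.6, 46.5 and 26.8 CPM and Cenpe at 21.7, 24.6 and 16.6 CPM. Of these 4 genes Tpx2 overlapped Tat-Cocaine. In Tat-Cocaine-Senicapoc the microglial sum was 2660 to 3536 CPM, with 0 of 12 markers past the threshold. Without Tat-Cocaine replicate 3, the highest library of its group, 10 of the 34 genes passed.

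Senicapoc alone changed 0 of the 34 genes relative to Control and 0% of all genes, with 2 of the 34 at an unadjusted p under 0.05 (8.67% of all) and a median of -0.19. Mki67 was at 10.5, 15.5 and 13 CPM, Top2a at 14.8, 12.5 and 22.1 CPM, Pcna at 81.5, 89.2 and 79.4 CPM and Mcm2 at 29.2, 28.3 and 31.3 CPM. Mcm5 was at 6.39, 8.62 and 8.61 CPM, Ccna2 at 3.04, 3.83 and 4.25 CPM, Birc5 at 2.14, 2.67 and 2.47 CPM and Aurkb at 28.7, 19.3 and 41.3 CPM. The Aurkb values lay below all Control values, and the other 7 genes overlapped Control. Ube2c was at 1.27, 2.55 and 2.71 CPM, Kif2c at 2.21, 2.36 and 2.88 CPM, Tpx2 at 8.46, 9.9 and 12.1 CPM and Cenpe at 5.32, 4.52 and 5.9 CPM.

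With Tat, Senicapoc changed 0 of the 34 genes relative to Tat, against 0.409% of all genes, with 0 at an unadjusted p under 0.05 (18.3% of all) and a median of -0.01. Mki67 was at 36, 95.7 and 79.2 CPM, Top2a at 26.4, 81.6 and 64 CPM, Pcna at 68.9, 104 and 92.1 CPM and Mcm2 at 31.6, 61.6 and 49.7 CPM. Mcm5 was at 15.7, 45.9 and 35.2 CPM, Ccna2 at 5.31, 22.8 and 15 CPM, Birc5 at 3.87, 12 and 6.35 CPM and Aurkb at 22.4, 51.7 and 38.7 CPM. Replicate 1 was the lowest and replicate 2 the highest of each of these genes. Ube2c was at 3.08, 13 and 9.46 CPM, Kif2c at 4.91, 13.8 and 10.8 CPM, Tpx2 at 16.6, 42.1 and 33.4 CPM and Cenpe at 8.73, 23.9 and 17.9 CPM.

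The compounds were also set against each other in Tat cultures, in 6 pairs, with p-values adjusted over all genes within each pair. Tat-4OI was lower than Tat-Tazemetostat in 19 of the 34 genes, against 9.72% of all genes called lower and 6.34% higher (16.1% in all), with a median of -1.18. It was lower than Tat-Amlexanox in 3 genes, namely Mki67, Mcm7 and Ccne2, against 6.82% of all genes lower and 6.88% higher (13.7% in all). It was lower than Tat-Senicapoc in 2 genes, namely Mki67 and Birc5, against 4.15% of all genes lower and 4.28% higher (8.43% in all). The shares of the list against Tat-Amlexanox (8.82%) and Tat-Senicapoc (5.88%) were near those of all genes called lower. At an unadjusted p under 0.05 there were 31, 7 and 22 of the 34 genes in these 3 pairs, against 33.5%, 30.7% and 22.6% of all. Mki67 differed from Tat-Tazemetostat by -1.99 ± 0.47, from Tat-Senicapoc by -1.90 ± 0.47 and from Tat-Amlexanox by -1.50 ± 0.47 on the log2 scale. The other 3 pairs gave 0 calls among the 34 genes, with 0% of all genes called for Tat-Amlexanox against Tat-Tazemetostat and against Tat-Senicapoc, and 0.120% for Tat-Tazemetostat against Tat-Senicapoc. Unadjusted p-values under 0.05 numbered 0, 0 and 2 of the 34 genes there, against 10.7%, 15.7% and 20.2% of all genes. The doses differ between the compounds, and each was given at 1 dose, so these are differences between these cultures and not between potencies. Whether a compound acted differently with Tat than without was tested as an interaction, and 0 of the 34 genes passed for 4OI, Amlexanox, Tazemetostat or Senicapoc (0.497%, 1.84%, 0% and 0% of all genes), with 0, 1, 0 and 0 genes at an unadjusted p under 0.05, against 11.9%, 18.2%, 1.71% and 4.8% of all.

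Other genes of the same pathways were taken from separate lists, which like the members were chosen with earlier results of these data known. Of 33 other replication genes tested, 18 rose with Tat and 0 fell, led by Mcm10 (1.84), Cdc6 (1.58) and Uhrf1 (1.42), which load or follow the replication machinery. Of 40 other mitosis genes 16 rose and 0 fell, led by Cks2 (1.57), Espl1 (1.43), which is separase, and the condensin subunit Ncaph (1.42). Of all genes 14.6% were called higher and 6.70% lower with Tat. Cdc6 was at 0.23, 1.57 and 1.82 CPM in Control and at 4.21, 6.67 and 2.27 CPM in Tat, without overlap, and again Tat replicate 3 was the lowest of its group. In Tat-4OI against Tat, 6 of the 33 and 9 of the 40 fell and 0 rose, among them Tk1 (-1.36), Chaf1b (-1.14), Cdc6 (-1.11), Cep55 (-1.48), Ect2 (-1.44) and Pbk (-1.42). Of all genes 9.48% were called lower in that comparison. In Tat-Cocaine-Tazemetostat against Tat-Cocaine, 12 of the 33 and 24 of the 40 rose and 0 fell, among them Tk1 (1.43), Cdc6 (1.37), Orc1 (0.96), Cdca3 (1.55), Cenpa (1.51) and Cep55 (1.39). Of all genes 15.2% were called higher there. With Amlexanox alone Prc1, which bundles the midzone of the spindle, fell by 1.72, Pttg1 (securin) by 1.02 and Chaf1a by 0.83, while Orc6 (0.68) and Prim1 (0.41) rose. These calls made up 9.09% of the replication and 5% of the mitosis genes tested, no more than the 11.4% of all genes. With 4OI alone Pttg1 was the only gene of these lists called (a fall of 1.13). That was 2.5% of the mitosis genes, against 3.15% of all genes.

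A further list held regulators of the cyclin-dependent kinases and the E2F and Rb families, most of which act in G1, while Cdc25b, Cdc25c and Wee1 act at entry into mitosis. Of 19 tested 6 rose with Tat and 0 fell, against 14.6% of all genes higher, led by Rbl1 (p107, 1.16), Cdc25c (0.67) and Cdc25a (0.61), and 2 fell in Tat-4OI against Tat, a share near the 9.48% of all genes, namely Rbl1 (-0.89) and Ccnd3 (-0.41). Amlexanox alone lowered Cdk6 (-0.88) and Wee1 (-0.71), an inhibitory kinase of Cdk1. Of 7 kinase inhibitors tested 1 rose with Tat, which is close to the share of all genes, namely Cdkn2a (1.29), from 0.92, 1.57 and 2.81 CPM in Control to 5.48, 7.45 and 2.51 CPM in Tat, with overlap. In Tat-Cocaine-Tazemetostat against Tat-Cocaine, 5 of the 19 regulators rose, against 15.2% of all genes, led by E2f8 (1.35), Rbl1 (0.93) and Ccnd1 (0.55). Of the 7 kinase inhibitors 3 rose and 2 fell there, against 15.2% and 13.4% of all, and the largest were Cdkn1c (-1.94), Cdkn2a (1.90) and Cdkn3 (1.36). Cdkn2a was at 1.7, 1.47 and 5.31 CPM in Tat-Cocaine and at 9.66, 13.5 and 8.79 CPM in Tat-Cocaine-Tazemetostat, without overlap. Cdkn2a is a known target of the EZH2 mark as well as a brake on the cycle. Whether that mark had a part in its rise here was not tested.

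Within groups, the library high in cell cycle genes was often rich in microglial markers, and often in fibroblast and vascular genes too. In 11 of the 16 groups the library with the highest median of the 34 genes was also highest in microglial markers, and in 12 it was lowest in neuronal markers. It was also highest in the fibroblast and vascular sum in Control (254 CPM), Cocaine (250 CPM) and Tat (345 CPM), among others. In 4OI it was the lowest (74.9 CPM). Nor was it the highest in Tat-Amlexanox, Tat-Cocaine-Amlexanox, Tat-Tazemetostat, Tat-Cocaine-Tazemetostat or Tat-Senicapoc. The link was thus not particular to microglia, and with 3 libraries per group some such matches arise by chance. None of the microglial, astrocyte and neuronal markers was at 0 in all libraries of a group. Between groups, Tat-Cocaine-4OI had the lowest mean microglial sum of the 16 groups (1063 CPM). Its 34 genes had a median log2 fold change of 0.28 against Tat-Cocaine with 0 called. The part of cell composition in these levels was not tested.

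**Figure D4:**
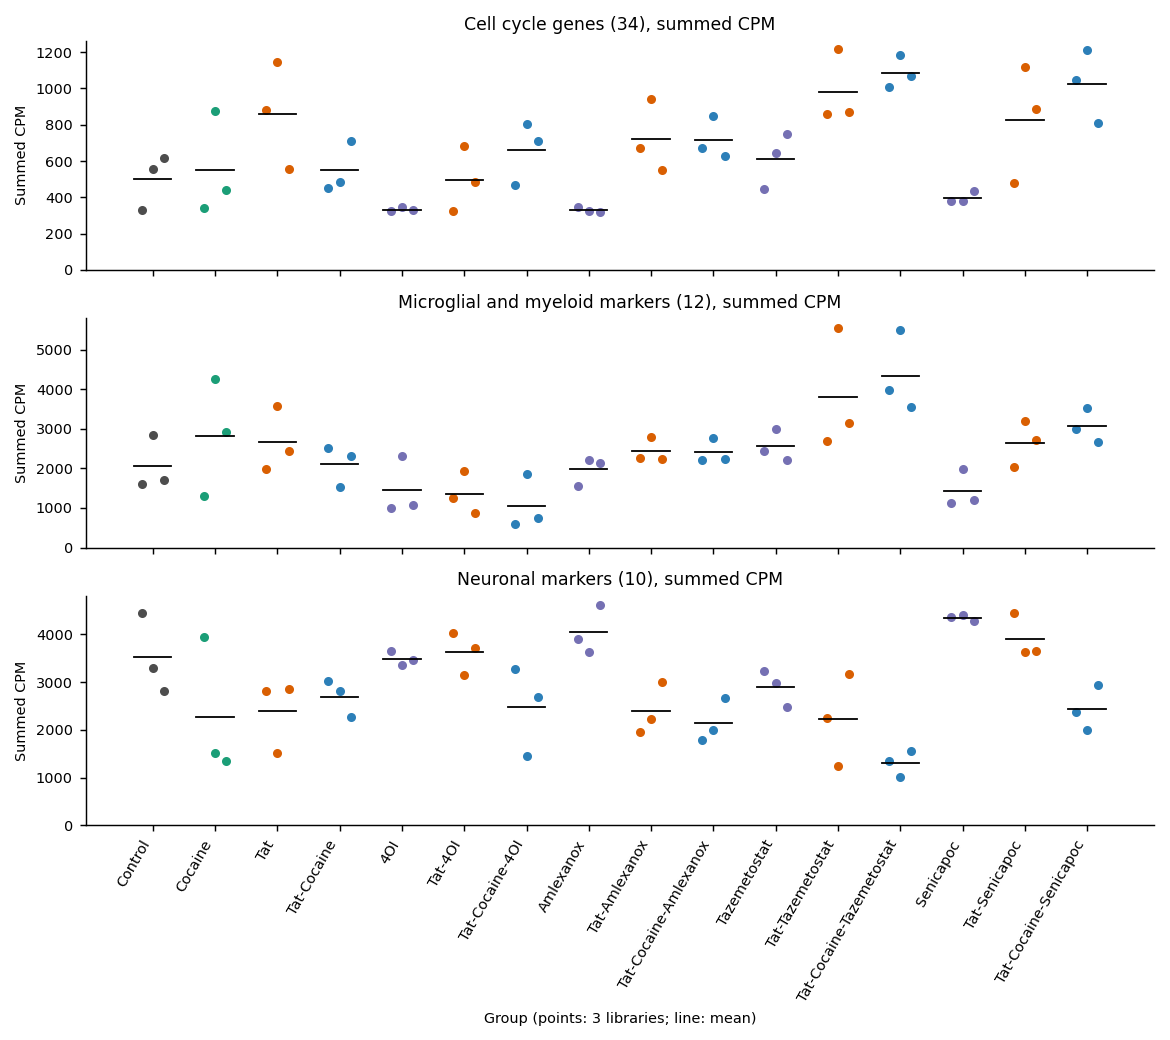
Summed CPM per library (points, 3 per group, with the group mean as a line) of the 34 cell cycle genes (upper panel), of 12 microglial and myeloid markers (middle) and of 10 neuronal markers (lower). The cell cycle sum is 1006 to 1185 CPM in Tat-Cocaine-Tazemetostat and 319 to 346 CPM in Amlexanox, and the libraries high in the upper panel are often high in the middle panel and low in the lower one.

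Of the 34 genes 6 were called in none of the 16 comparisons, namely Rrm2, Ccne1, Bub1b, Cdc20, Nusap1 and Top2a. The 4 genes called most often, in 3 comparisons each, were Ccna2, Aurkb, Birc5 and Mki67. Of the counts of called genes, those of Tat against Control, Tat-4OI against Tat, Amlexanox against Control, and Tat-Cocaine-Tazemetostat and Tat-Cocaine-Senicapoc against Tat-Cocaine changed the most when 1 library was left out, while the named differences kept their sign in each of those fits. With 3 libraries against 3 an exact permutation test of a single gene cannot give a p under 0.1, so each call rests on the spread that limma shares between genes and groups.

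**Figure D5:**
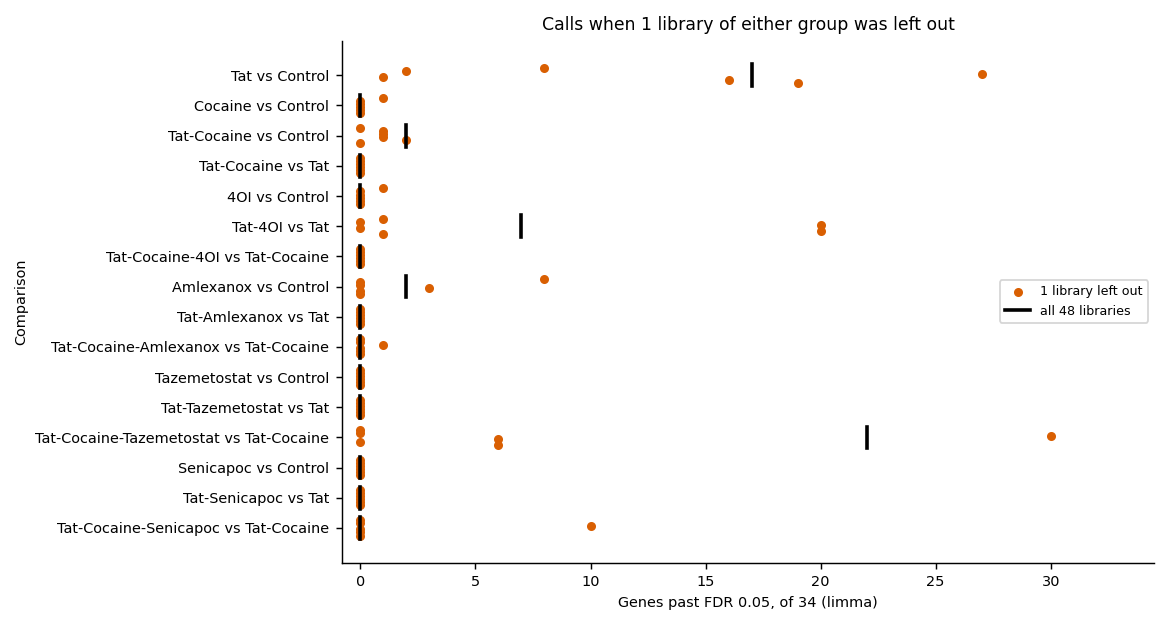
Number of the 34 genes past an adjusted p of 0.05 (limma, x axis) in each of the 16 comparisons (y axis), with all 48 libraries (black bars) and with 1 library of either group left out (orange points). For Tat against Control the bar is at 17 and the points run from 1 to 27, and for Tat-Cocaine-Tazemetostat against Tat-Cocaine the bar is at 22 and the points run from 0 to 30.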

How the data were processed

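Libraries were prepared by the authors with a strand-specific kit, sequenced as paired ends, aligned with STAR, and counted over genes by featureCounts from reads with a unique position; the strand setting of the counting is not given in the sources used here. The submitters' processing notes name Trim Galore 0.4.5, STAR 2.7.2, SAMtools 1.5 and Subread 1.5.3, and they list other genome builds than the study's methods, so no coordinate was taken for a gene from the files. The deposited values are a signal per gene, namely CPM scaled by the authors with TMM factors of edgeR, and they cover the gene's reads relative to its library. Between 84.8% and 86.8% of the values under 200 reads were whole numbers of reads within 0.02 read, so reads were not recovered and no count model was used. Columns of group means, fold changes, likelihood ratios, p-values and false discovery rates from the authors' own comparisons were not used.

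In R 4.3.3, limma 3.58.1 fitted 1 mean per group to log2(CPM + 0.5) over all 48 libraries with a trended variance prior, for the 15890 genes that reached 0.5 CPM in 3 or more libraries. P-values were adjusted over all of them in each comparison (Benjamini-Hochberg, threshold 0.05), two-sided. A fold change on this scale understates the change of low genes. The members and the other lists were chosen with earlier results of these data known, so their directions are no independent evidence. Genes named with values were 12 fixed members, up to 5 called members of largest change per comparison and up to 3 called genes of each other list, with a few set beside them after their values were seen (such as Cdk1, Mcm4, Tyms, Mcm7 and Ccne2). Of the other listed genes 5 had no row, and the result of 1 marker gene is not reported here. The fit was checked on simulated data in which genes varied independently, with the same spread in every group. The genes here moved in step and their spread differed between groups, so that check cannot bear on the counts of called genes. Other pseudocounts (0.1 and 1 CPM), filters, scalings, fitted libraries, the variance prior without a trend, the replicate number as a block, and each library left out were tried. The replicate numbers come from the sample titles. Deviations of same-numbered libraries from their group means correlated above 0.1 in every pair for 5 of the 16 comparisons (Tat-Cocaine, 4OI, Tazemetostat and Senicapoc against Control, and Tat-Amlexanox against Tat), and these were taken as paired.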

Additional observations from a re-analysis of the deposited data

How the results depend on the processing

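Counts are of the 34 genes past an adjusted p of 0.05 in limma. Fitted to 21 libraries, Tat against Control gave 5, Tat-Cocaine against Control 0 and Tat-4OI against Tat 0. In the compared groups alone these gave 1, 0 and 0, Amlexanox against Control 0 and 4OI against Control 1. Without the filter on low values Tat against Control gave 13, Tat-4OI against Tat 4, Amlexanox against Control 1 and Tat-Cocaine-Tazemetostat against Tat-Cocaine 13. Quantile normalization gave 4 for Tat-4OI against Tat, and a prior without a trend gave 1 for Amlexanox against Control. With 1 library left out, the counts ran from 1 to 27 for Tat against Control, 0 to 20 for Tat-4OI against Tat, 0 to 30 for Tat-Cocaine-Tazemetostat against Tat-Cocaine, 0 to 10 for Tat-Cocaine-Senicapoc against Tat-Cocaine, 0 to 8 for Amlexanox against Control, 0 to 2 for Tat-Cocaine against Control, and 0 to 1 for Cocaine and 4OI against Control and for Tat-Cocaine-Amlexanox against Tat-Cocaine. Over the 6 pairs of compounds in Tat cultures, 24 calls in all became 2 to 49. Of 32 named calls none changed sign, and 253 of 307 alternative fits and 74 of 192 fits without 1 library kept them past the threshold. The causes of these changes were not tested.

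With the replicate number as a block, 4OI against Control, whose libraries were paired, gave 1 call, and in the compared groups alone, a fit chosen after seeing the data, 0. The block changed no other call count among the paired comparisons. Where libraries share a number only, the block gave 18 calls for Tat-4OI against Tat, 6 for Amlexanox against Control, 20 for Tat against Control, 31 for Tat-Cocaine-Tazemetostat against Tat-Cocaine and 45 over the compound pairs. In 0 of the 11 comparisons without pairing, out of 16, did every library correlate best with its own number. Low counts limit Ube2c, Mybl2, Kif2c and Birc5 most, whose lowest libraries stood at 0.383, 0.660, 0.844 and 0.856 CPM.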

Other observations

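Growth factors and receptors of microglia and myeloid cells, which were kept apart from the cell cycle genes, rose with Tat in 4 of 8 genes and fell in 0 (limma, adjusted p under 0.05), against 14.6% of all genes higher. In Tat-Cocaine against Control 5 of the 8 rose and 0 fell, against 8.63% of all genes higher. Csf2rb, the shared beta chain of the receptors for GM-CSF and interleukins, was at 7.59, 19.1 and 10.4 CPM in Control and at 60.5, 126 and 62.7 CPM in Tat (2.71 on the log2 scale). Csf1, the growth factor that microglia depend on, was at 80.1, 145 and 137 CPM and at 378, 430.0 and 281 CPM (1.61), and Csf2ra rose by 1.32. All of these separated the groups. Csf3 was listed at 0 in all 3 Control libraries and was at 1.72, 2.67 and 1.09 CPM in Tat, and in Tat-4OI it was at 0, 0.161 and 0 CPM. In Tat-4OI against Tat 4 of the 8 fell, against 9.48% of all genes, namely Csf3, Csf1r (-1.19), Csf2ra (-1.03) and Csf1 (-0.87). In Tat-Cocaine-Tazemetostat against Tat-Cocaine 4 of the 8 rose, against 15.2% of all genes, namely Csf2rb (1.40), Tgfb1 (1.19), Csf1r (1.11) and Csf2ra (1.04). Csf1r, the receptor of Csf1, was at 363, 203 and 386 CPM in Tat-Cocaine and at 626, 827 and 549 CPM with Tazemetostat added.

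Of 13 targets of p53, which halts the cycle after DNA damage, 2 rose and 2 fell with Tat, against 14.6% of all genes higher and 6.70% lower, so that the share higher was near that of all genes. In Tat-Cocaine against Control 4 of the 13 rose and 0 fell, against 8.63% of all genes higher and 6.30% lower. With Tat, Btg2 (1.23), an antiproliferative gene, and Bax (0.27) rose and Sesn1 (-0.60) and Ccng1 (-0.39) fell. Btg2 was at 28.3, 32.2 and 26.1 CPM in Control, at 56.8, 66.9 and 83.4 CPM in Tat and at 33.3, 37.7 and 33.3 CPM in Tat-4OI, so that neither pair of groups overlapped. Tat replicate 3, the lowest Tat library for 33 of the 34 cell cycle genes, was the highest of the Tat libraries for Btg2. Of 4 fibroblast and vascular genes tested 2 fell in Tat-Cocaine-Tazemetostat against Tat-Cocaine, namely Dcn (-2.69) and Lum (-2.12), matrix proteoglycans of fibroblasts, against 13.4% of all genes lower. Of 8 markers of neural progenitors 1 fell there (Dcx, -1.09) and 0 rose, a share near that of all genes, while Nes rose in Tat-4OI against Tat (0.83).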
